A study of Mus musculus with 26 samples.

Results

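The level of every protein-coding nuclear gene was compared between the choroid plexus (ChP) of Bmal1-KO mice and that of control mice (Ctrl), as 2 KO libraries against 12 Ctrl libraries. A gene entered when its mean Ctrl level reached 5 CPM (counts per 1000000 counts on nuclear protein genes), which kept 10787 of the 21915 nuclear protein genes and of the 55416 genes in the tables. The ChP is the secretory tissue of the brain ventricles that makes the cerebrospinal fluid (CSF), and the series asked how its daily rhythms depend on the suprachiasmatic nucleus (SCN) and on the local clock. The 26 libraries of the series also held 12 from mice with an SCN lesion (SCNx), used here only as a yardstick. The question for each gene was whether both KO libraries lay outside the range that Ctrl covered over the cycle.

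The Ctrl mice were adult C57BL/6J males after sham surgery, 1 mouse every 4 h from CT0 to CT44 in constant darkness. Their ChP of the 4th ventricle was removed with pincers into RNAlater, and the libraries were made with the KAPA mRNA HyperPrep kit after enrichment of polyadenylated RNA. The KO mice were adult males of genotype FoxJ1-ERT2-Cre+/-; Bmal1fl/fl on a tamoxifen diet, kept in a light-dark cycle at another institute, with 1 mouse taken at ZT7 and 1 at ZT18. Their ChP was cut from frozen brain by laser-capture microdissection, the RNA was on average less intact, and the libraries were made with the Smarter Stranded total RNA kit for low input. The Foxj1 promoter drives the Cre, so deletion can occur only in cells that use that promoter, and other cells of the sample keep Bmal1. By the ages that the paper gives, the KO mice were older than Ctrl, and it describes no surgery for them. Genotype, age, surgery, kit, dissection, institute, tamoxifen and lighting changed together and cannot be told apart. No p-value was computed for any difference between KO and Ctrl. With 1 mouse per time point, the 2 KO libraries also do not measure the spread between mice of one time.

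In the cell clock, BMAL1 (gene symbol Arntl) pairs with CLOCK or NPAS2 and binds E-boxes in promoters. This turns on the Per, Cry, Nr1d1 and Nr1d2 genes and the output regulators Dbp, Tef and Hlf, whose products act on D-boxes. PER and CRY proteins block the activator pair, and the REV-ERB proteins made from Nr1d1 and Nr1d2 repress Arntl, Npas2, Nfil3 and Cry1, on elements that ROR proteins use as activators. Tissue without BMAL1 is generally known to lose its rhythm, and the mean level around which each gene settles differs between genes.

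The letters CACGTG are the canonical E-box. They were looked for in the 250 bases before each gene start in RefSeq (GRCm38.p6). This motif reads the same on both strands. It was present in 6.02% of all 32851 stretches. Among the clock genes compared here, 12 of 15 E-box and D-box outputs matched an entry and 4 of these held the motif, namely Tef, Ciart, Bhlhe41 and Per1. Of 6 matched activators and REV-ERB targets 1 held it, namely Cry1. Stretches of 3 outputs are shown because they hold the element that BMAL1 and its partners bind, with each CACGTG in capitals. That of Ciart is chr3:95882229-95882478 (minus strand), that of Per1 is chr11:69098699-69098948 (plus strand) and that of Tef is chr15:81811164-81811413 (plus strand).
Ciart: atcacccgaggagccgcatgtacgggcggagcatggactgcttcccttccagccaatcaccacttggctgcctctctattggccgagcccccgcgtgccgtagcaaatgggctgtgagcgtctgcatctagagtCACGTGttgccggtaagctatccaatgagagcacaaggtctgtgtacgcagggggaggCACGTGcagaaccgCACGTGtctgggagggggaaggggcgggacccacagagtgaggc
Per1: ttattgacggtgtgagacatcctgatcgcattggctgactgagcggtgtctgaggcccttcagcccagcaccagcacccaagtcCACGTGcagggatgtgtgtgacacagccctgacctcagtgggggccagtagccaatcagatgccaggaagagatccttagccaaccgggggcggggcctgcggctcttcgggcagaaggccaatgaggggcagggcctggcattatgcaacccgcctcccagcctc
Tef: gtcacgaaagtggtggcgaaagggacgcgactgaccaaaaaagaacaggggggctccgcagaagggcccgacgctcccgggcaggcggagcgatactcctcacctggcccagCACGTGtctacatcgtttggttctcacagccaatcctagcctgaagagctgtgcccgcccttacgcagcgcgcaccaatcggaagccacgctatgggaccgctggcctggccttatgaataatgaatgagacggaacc
Ciart holds 3 copies, which begin 116, 58 and 44 bases before the start. The copy of Per1 begins at 166 and that of Tef at 138 bases. Per1 and Tef have 2 entries each in this table. The other stretch of Per1 held no copy, and that of Tef held 1, which begins 127 bases before its start. A match of letters is a description and not a site of binding. Over the 8681 compared genes with an entry, 876 held the motif, and their median log2 difference between KO and Ctrl was -0.11, beside -0.02 for the 7805 without it. Of those with the motif 26.8% lay above the Ctrl range and 35.3% below, beside 28.0% and 31.3% of the others.

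The 12 Ctrl libraries held 38751201 to 47335258 estimated counts, and the KO libraries held 17425207 (ZT7) and 18059227 (ZT18). In KO 3 counts corresponded to 0.250 CPM (ZT7) and 0.227 CPM (ZT18), well under the minimum of 5 CPM. Both KO libraries lay above the highest Ctrl library for 3012 genes (27.9%) and below the lowest for 3355 (31.1%), and 4420 genes (41.0%) had at least 1 KO library inside the range. With a difference of at least 2-fold in addition, 793 genes (7.35%) lay above and 546 (5.06%) below. Pairs of SCNx libraries, prepared like Ctrl, were placed in the same way, and over 8 pairs of a day and a night library 0.185% to 3.49% of genes lay above the Ctrl range and 0.306% to 3.34% below. A position outside the Ctrl range is therefore common in KO, and a member list has to be read against these shares.

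The balance between the sides depends on the scale. Genes above made up 47.3% of all genes outside the range with the scale used here (TMM over nuclear protein genes), 24.9% when CPM were taken over all genes, and 93.5% when each library was scaled to 10 markers of ChP epithelium. The median gene differed by -0.02 on the log2 scale in the first case, by -0.31 in the second and by 0.66 in the third. With CPM over all genes, 15.4% of genes lay above the range and 46.6% below, and on the epithelial scale 64.3% and 4.51%. List counts under these scales have to be read against those shares. List medians are given relative to the median gene, since a scaling moves all genes of a library alike and nearly cancels there. A gene less than 0.7 below Ctrl on the log2 scale is near or above it when epithelial markers set the scale.

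Other facts of the libraries moved with the KO and belong beside every result. The summed level of 13 neuronal markers was 388 CPM at ZT7 and 518 CPM at ZT18, against a Ctrl median of 20.8 CPM and a Ctrl maximum of 397 CPM in the library of CT4. In 8 of these 13 both KO libraries lay above the Ctrl range, and none was at 0 in KO. The defining synaptic gene Snap25 had 155 and 205 CPM in KO, with 0.639, 3.31 and 157 CPM as the lowest, median and highest Ctrl values.
All 5 oligodendrocyte markers lay above the Ctrl range, with sums of 445 and 609 CPM against 69.4 to 174 CPM in Ctrl. The 5 astrocyte markers summed to 1078 and 1183 CPM against 130 to 845 CPM, and 3 of the 5 lay above. The blood markers summed to 312 and 300 CPM against 347 to 1768 CPM instead, and 2 of these 5 lay below singly. The 10 epithelial markers summed to 126882 and 113274 CPM, below every Ctrl library (166315 to 192245 CPM), and 7 of the 10 lay below singly. Epithelial markers remained the most abundant of all marker lists in KO, as the tissue label says, beside the raised markers of neurons and glia. In such bulk samples fewer cells of a type and less RNA per cell cannot be told apart. The part of these markers in the results below was not tested.

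**Figure D1:**
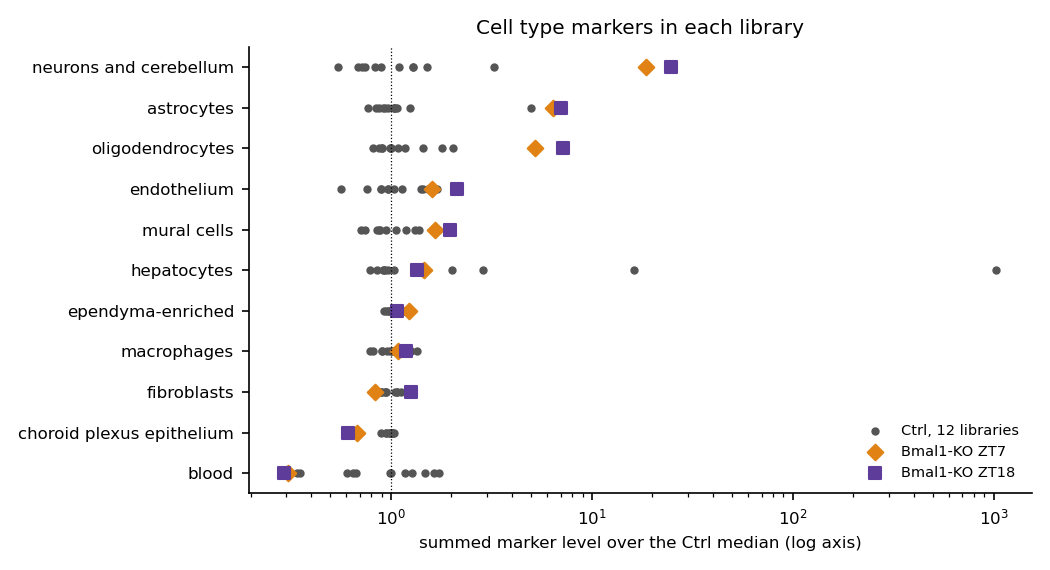
Summed level of each marker list in each library, divided by the Ctrl median of that list (log axis), with 12 grey points for Ctrl, a diamond for KO at ZT7 and a square for KO at ZT18. Neuronal, astrocyte and oligodendrocyte markers stand at 6.19 to 21.8 times the Ctrl median as the mean of the KO libraries, epithelial markers at 0.644 and blood at 0.300 times. The Ctrl point near 1000 for hepatocyte markers is CT16.

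Long genes were higher and short genes lower. The genes were divided into 4 equal classes by exonic length. In the class with the shortest exonic sequence (0.243 to 3.06 kb) 14.5% lay above the Ctrl range and 46.2% below, and in the longest class (7.28 to 123 kb) 52.2% lay above and 12.8% below. Across genes the log2 difference had a Spearman rho of 0.399 with exonic length, where genes are not independent replicates. Ribosomal RNA of the mitochondria took 20.2% (ZT7) and 17.5% (ZT18) of all counts in KO and 0.192% to 0.498% in Ctrl, and nuclear protein genes took 69.2% and 73.0% against 82.9% to 90.4%.

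**Figure D2:**
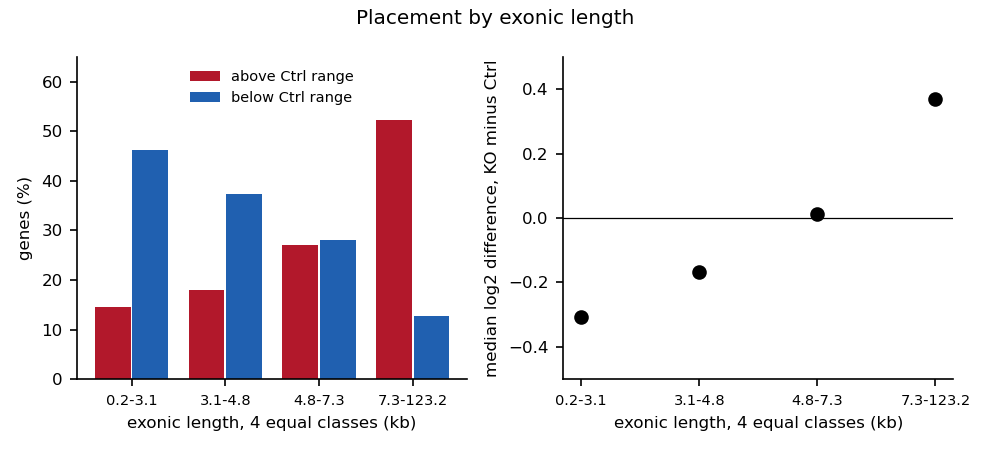
Placement by exonic length in 4 equal classes (kb, horizontal axes). Left, percent of genes with both KO libraries above (red) or below (blue) the Ctrl range. Right, median log2 difference, KO minus Ctrl, which goes from -0.31 in the shortest to 0.37 in the longest class.

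For the clock genes the KO levels mostly fell inside the range that Ctrl ran through in a cycle, and none of the 22 lay below that range. Of the 22, 3 lay above it, namely Bhlhe40, Clock and Rora, which is 1 of 15 E-box and D-box outputs and 2 of 7 activators and REV-ERB targets. The ranges were wide here, with a median of 5.31-fold between the highest and the lowest Ctrl library against 1.31-fold over all compared genes, so that a gene could differ several-fold from the Ctrl median and still count as inside. Among the 216 genes of any kind with a Ctrl range of at least 4-fold, 21.8% lay above and 3.24% below. On the log2 scale the median clock gene stood 73.5% of the way from the lowest to the highest Ctrl library at ZT7 and 77.4% at ZT18. By the mean of the KO libraries 18 of 22 were nearer to the highest than to the lowest Ctrl library and none was in the lowest 10% of the range. With CPM over all genes 12 of the 21 at the minimum were nearer to the highest and 1 was in the lowest 10%, and with the epithelial scale 21 of 21 were and none was.

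Nr1d1, which encodes REV-ERBα and is among the genes most directly driven by BMAL1, had 43.7 CPM at ZT7 and 71.9 CPM at ZT18. Ctrl went from 2.88 CPM through a median of 31.9 CPM to 106 CPM at CT8. Both KO libraries were above the Ctrl median and below its peak, and the log2 difference of 1.18 exceeded that of 95.6% of the 500 genes nearest in Ctrl level. Its paralog Nr1d2 had 169 and 147 CPM, with Ctrl values of 42.9, 153 and 244 CPM (lowest, median, highest). One KO library of Nr1d2 was above the Ctrl median and the other just below it.

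The outputs with D-box products were spread over the upper part of the range. Dbp had 88.0 and 106 CPM in KO, and 9.93, 40.8 and 158 CPM in Ctrl. Its log2 difference of 1.23 was the largest of the clock genes and stood above 97.2% of genes of like expression. Both KO libraries exceeded the Ctrl median more than 2-fold but not the peak. For Hlf the KO values were 58.7 and 85.1 CPM, in a Ctrl range from 38.2 to 92.6 CPM around a median of 56.4 CPM. Tef, the third factor of that family, had 120 and 128 CPM, both just under the Ctrl median of 132 CPM (45.9 to 235 CPM). Ciart, a repressor of the clock with 3 E-boxes in the stretch above, had 4.91 and 4.31 CPM against 0.189, 1.79 and 20.3 CPM. Its low level makes these values the least precise of the group.

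Of the negative limb, the Per genes and Cry2 stood above the middle of the range. Per1 had 62 CPM at ZT7 and 93.3 CPM at ZT18, with Ctrl from 21.9 to 88.1 CPM (median 46.1 CPM), so that only the night library passed the Ctrl maximum. Per2 had 50.8 and 67.2 CPM (Ctrl 10.4, 43.7 and 90.2 CPM). For Per3 the values were 39.4 and 48.9 CPM (Ctrl 9.93, 29.8 and 61.1 CPM). All 3 genes had both KO libraries above the Ctrl median. Cry2, whose protein keeps the activator pair inactive, had 44.7 and 52.0 CPM beside a Ctrl median of 44.7 CPM, which is 55.2% and 75.6% of the way up its range. The E-box repressors Bhlhe40 and Bhlhe41 were near or above the top of the range. Bhlhe40 reached 62.7 and 80.4 CPM, both above the Ctrl maximum of 60.1 CPM (lowest 31.8, median 39.9 CPM), with CPM over all genes as the scaling at which it no longer lay above. Bhlhe41 reached 38.9 and 48.8 CPM, where Ctrl ended at 49.2 CPM (lowest 8.48, median 21.7 CPM).

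The other outputs did not stand high in both libraries. Usp2, a deubiquitinase, had 170 and 178 CPM, both under the Ctrl median of 198 CPM (114 to 286 CPM). Wee1, a kinase that holds back mitosis, had 8.41 and 10.4 CPM, both under its median of 12.1 CPM (7.04 to 18.6 CPM). Nampt, the NAD salvage enzyme, had 83.4 CPM at ZT7, above the Ctrl maximum of 72.2 CPM, and 62.9 CPM at ZT18, inside the range.

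The deleted gene itself gave no check of the labels. The cross removes an exon, a shortened Arntl transcript is still counted, and cells outside the Cre line keep the whole gene. Arntl had 15.3 CPM at ZT7 and 12.8 CPM at ZT18, close to the Ctrl median of 12.3 CPM and far from both the trough (2.32 CPM) and the peak (45.2 CPM). Its partner Clock had 336 and 268 CPM, both above the Ctrl maximum of 231 CPM (lowest 118, median 200 CPM). For the Clock gene this order was lost with CPM over all genes.

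Other genes on the REV-ERB and ROR arm sat near the middle of their ranges. Npas2, the alternative partner of BMAL1, had 10.9 and 14.9 CPM around a Ctrl median of 11.4 CPM (5.70 to 33.9 CPM). Nfil3, a D-box repressor, had 11.2 and 10.9 CPM beside a median of 10.5 CPM (4.48 to 28.3 CPM). In both genes, as in Arntl, the KO libraries lay near the Ctrl median and away from both ends of the range. Cry1 was somewhat higher, at 28.0 and 30.3 CPM beside a median of 23.8 CPM (9.54 to 40.7 CPM). Rora, which encodes an activator at these elements and is also used by neurons and astrocytes, had 152 and 158 CPM against a Ctrl maximum of 109 CPM (lowest 70.1, median 86.7 CPM), and it lay above the range under every scaling tried.

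**Figure D3:**
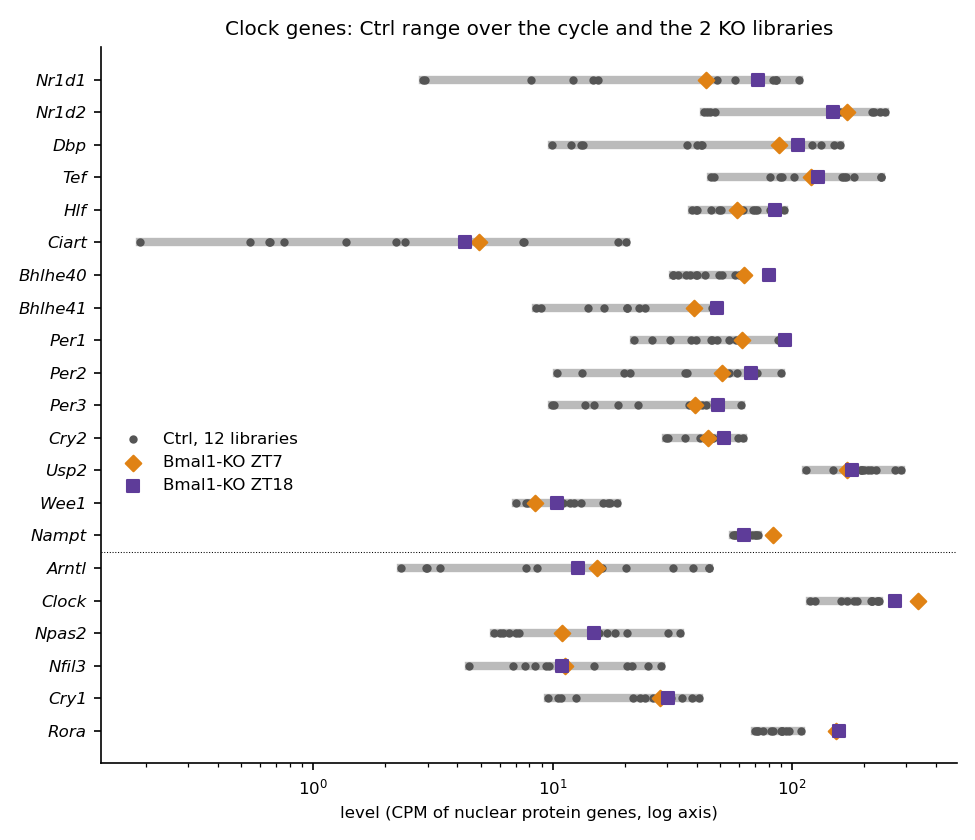
Level of 21 of the 22 clock genes in CPM (log axis), with grey bars from the lowest to the highest Ctrl library, 12 grey points for Ctrl, a diamond for KO at ZT7 and a square for KO at ZT18. Genes over the dotted line are E-box and D-box outputs, and those under it activators and REV-ERB targets. In 3 rows (Bhlhe40, Clock, Rora) both KO symbols lie right of the bar, and in none left of it.

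Over all clock genes jointly, the KO libraries were not as near to any Ctrl library as Ctrl libraries of the same time of day were to each other. The distance between libraries was taken as the root mean square of the log2 differences over the 22 genes. Each Ctrl library was nearest to the one taken 24 h before or after it, at 0.136 to 0.259. The KO library of ZT7 was nearest to Ctrl at CT16 (0.682), that of ZT18 to Ctrl at CT32 (0.778), and the distance between the KO libraries was 0.333. Genes at large also differed between the groups, with a median absolute log2 difference of 0.43 between KO and Ctrl over all compared genes. The distance was not computed for other genes, so a larger distance to Ctrl cannot be called particular to clock genes. Ratios within a library, which no scaling can shift, also placed the KO libraries between the middle and the upper end of the Ctrl range. The log2 ratio of Nr1d1 to Arntl went from -3.51 (CT44) to 4.78 (CT8) in Ctrl and was 1.48 (ZT7) and 2.45 (ZT18) in KO. That of Dbp to Npas2 went from -1.56 to 4.68 in Ctrl and was 2.96 and 2.79 in KO. For Per3 to Nfil3 the ends were -1.07 and 3.1, and the KO values 1.76 and 2.12.

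Over the clock genes, though not over all genes, the KO libraries of day and night were closer to each other than Ctrl day and night. Over the 22 genes the median absolute log2 difference between ZT7 and ZT18 was 0.28 in KO, against 0.65 between the Ctrl libraries of CT8 and CT32 and those of CT16, CT20, CT40 and CT44. Over all 10787 genes that median was 0.206 in KO, larger than the 0.156 between Ctrl CT8 and CT20 and the 0.164 between CT32 and CT44. By count, 97 genes (0.899%) differed at least 2-fold between the KO libraries, beside 110 between Ctrl CT8 and CT20 and 117 between CT32 and CT44. Among the 3505 genes of any kind whose Ctrl day and night libraries did not overlap, the median absolute log2 difference was 0.22 in Ctrl and 0.20 in KO. For the 49 of these with a Ctrl difference of at least 2-fold, clock genes included, it was 1.37 in Ctrl and 0.23 in KO. A smaller difference in KO is thus not particular to clock genes, and choosing genes by their Ctrl difference favours it. Because lighting differs between the groups, the effect of the light itself on either time point cannot be told apart.

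**Figure D4:**
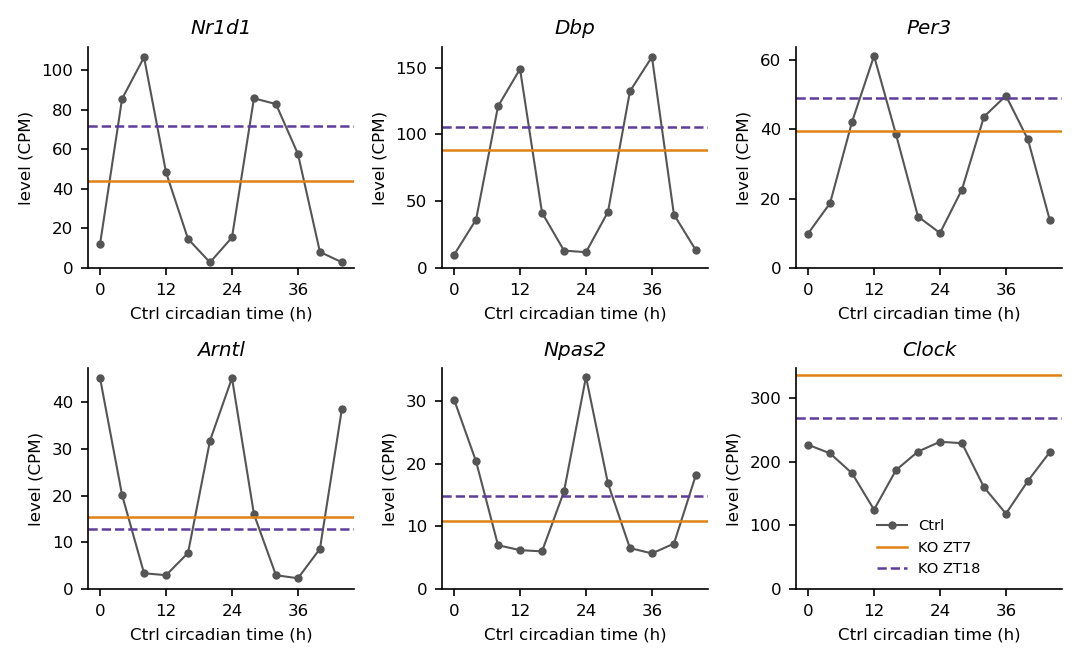
Level in CPM of 6 clock genes in the 12 Ctrl libraries by circadian time (grey points and line) with the KO values at ZT7 (solid orange) and ZT18 (dashed violet) drawn across as level lines. The KO lines of Nr1d1, Dbp, Per3, Arntl and Npas2 cross the Ctrl curve between trough and peak, and those of Clock run above it.

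Of 10 kinases and ubiquitin ligases that modify clock proteins 2 lay above and 5 below the Ctrl range, beside 27.9% and 31.1% of all genes. On the epithelial scale 7 lay above and 0 below, where 64.3% of all genes lay above and 4.51% below. Csnk1d, which phosphorylates PER proteins, had 63.5 and 76.6 CPM against 121 to 145 CPM in Ctrl (median 136 CPM). Gsk3b had 192 and 222 CPM against 126 to 154 CPM (median 143 CPM). KO and Ctrl did not overlap for either gene, in opposite directions, and the list median was 0.07 below the median gene. On the epithelial scale Csnk1d came to lie inside the Ctrl range.

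The genes that make ChP epithelium what it is were lower in KO more often than other genes. Of 16 secreted products and receptors 9 lay below (56.2%, against 31.1% of all genes) and 1 above, with a list median 0.49 below the median gene. On the epithelial scale 3 lay below and 3 above, where 4.51% of all genes lay below and 64.3% above. Ttr, the carrier of thyroxine and the most abundant of the list, had 61094 and 65135 CPM against 94706 to 108283 CPM (median 103425 CPM). Igf2 had 1683 and 2084 CPM against 3522 to 4334 CPM (median 4011 CPM), and Folr1, the folate receptor, 369 and 318 CPM against 636 to 824 CPM (median 690 CPM). None of these overlapped Ctrl, except that Ttr did on the epithelial scale. Enpp2, which makes lysophosphatidic acid, had 57479 and 40760 CPM against 59434 to 73800 CPM. Its log2 difference of -0.48 turned to 0.21 on the epithelial scale, of which it is itself a part. Ttr and Folr1 are part of that scale too, so the counts of this list on it are partly fixed in advance.

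Transporters and channels followed the same pattern, with 22 of 39 below (56.4%) and 2 above. The list median was 0.49 below the median gene. It was 0.48 to 0.49 below under every scaling, which was fixed in advance, since a scaling moves all genes of a library alike. On the epithelial scale 9 lay below and 14 above, where 4.51% of all genes lay below and 64.3% above. Kcnj13 and Clic6 of this list are themselves part of that scale, so these counts are partly fixed in advance. Kcnj13, an apical potassium channel of this epithelium, had 415 and 328 CPM against 849 to 1027 CPM (median 971 CPM). Slc46a1, the proton-coupled folate transporter, had 24.1 and 20.7 CPM against 48.4 to 66.1 CPM (median 53.4 CPM). Both were lower than Ctrl at least 2-fold, and stood above only 3% and 0.6% of genes of like expression. Trpm3, a cation channel gene that hosts a microRNA, did not follow, with 5898 and 5984 CPM inside a Ctrl range of 4021 to 6815 CPM.

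Of 18 V-ATPase subunits, which acidify organelles, 12 lay below (66.7%) and 1 above. On the epithelial scale 3 lay below and 8 above, where 4.51% of all genes lay below and 64.3% above. Atp6ap1 had 167 and 153 CPM against 371 to 411 CPM (median 394 CPM). Of 15 tight junction genes 6 lay below, a share not far from that of all genes, and 2 above. On the epithelial scale 4 of them lay below and 6 above, beside the same shares of all genes. Cldn2, the claudin of leaky epithelia, had 267 and 244 CPM against 519 to 714 CPM (median 639 CPM), and F11r, a junction adhesion molecule, 48.3 and 49.7 CPM against 137 to 166 CPM (median 150 CPM). The KO libraries of Cldn2 and F11r did not overlap Ctrl under any scaling tried. The summed epithelial markers stood at 0.644 times the Ctrl median. For the secreted products and transporters that sum is no separate comparison, since Ttr, Enpp2, Folr1, Kcnj13 and Clic6 belong to both. Its part in the level of the V-ATPase subunits and tight junction genes was not tested. The V-ATPase subunits had a median exonic length of 3.55 kb and the tight junction genes 3.71 kb, against 4.79 kb over all genes. After subtraction of the median of each length class the transporters stood at -0.41, the secreted products at -0.44, the V-ATPase subunits at -0.28 and the tight junction genes at -0.07.

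Motile cilia matter for the design because the Cre was expressed from the promoter of Foxj1, the master regulator of these cilia. Foxj1 had 75.5 CPM at ZT7 and 95 CPM at ZT18, against 157, 197 and 228 CPM in Ctrl. Both KO libraries were more than 2-fold below the Ctrl median, and the gene stood lower than all but 3.2% of genes of like expression. The KO mice carried the FoxJ1-ERT2-Cre allele and Ctrl did not, and the part of that allele in the Foxj1 level was not tested. The cilia genes did not share one direction. Of 40 cilia genes 15 lay below (37.5%) and 7 above (17.5%), beside 31.1% and 27.9% of all genes. The list median was 0.10 below the median gene. On the epithelial scale 3 lay below and 22 above, where 4.51% of all genes lay below and 64.3% above. Drc7, a dynein regulator, had 229 and 272 CPM against 330 to 438 CPM, which the epithelial scale turned to a log2 difference of 0.07. Dnah7b, a dynein heavy chain, had 141 and 175 CPM against 31.6 to 75.4 CPM, and Cfap46 25.5 and 22.6 CPM against 4.53 to 7.01 CPM. Markers of ependyma were mixed. Of 4 markers 2 lay above and 1 below, and their sum of 61.1 and 53.2 CPM was inside the Ctrl range of 46.1 to 63.2 CPM. Ccdc153 had 29.9 and 22.4 CPM against 0.487 to 2.71 CPM, and Mia 9.99 and 14.9 CPM against 34.6 to 44.5 CPM. The part of ependyma in the cilia counts was not tested. Of 21 intraflagellar transport genes 6 lay above (28.6%) and 5 below (23.8%), beside 27.9% and 31.1% of all genes.

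Genes of the respiratory chain and the proteasome lay below the Ctrl range more often than genes at large on the scale used here, and both sets are short. Of 83 nuclear respiratory chain genes 45 lay below (54.2%) and 16 above, and of 36 proteasome subunits 19 below and 6 above. On the epithelial scale 4.51% of all genes lay below and 64.3% above. There the respiratory chain had 15 below and 42 above, and the proteasome 2 below and 23 above. Atp5b, a catalytic subunit of the ATP synthase, had 723 and 741 CPM against 1384 to 1564 CPM (median 1473 CPM). Relative to genes of the same length class the respiratory chain stood at -0.08 and the proteasome at -0.10, close to other genes of their length. The 28 NRF2 and antioxidant genes kept a larger shift on that measure, at -0.25, with 16 below (57.1%, against 31.1% of all genes) and 1 above. Txn1, the cytosolic thioredoxin, had 19.1 and 17.2 CPM against 39.2 to 45.4 CPM (median 43.1 CPM). The cytosolic ribosomal proteins had 20 of 82 above and 29 below, and the mitochondrial ribosome 11 of 78 above and 28 below (35.9%), near the share of all genes.

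Genes of protein folding were mixed. Of 33 genes of the endoplasmic reticulum (ER) 12 lay below (36.4%) and 4 above (12.1%), beside 31.1% and 27.9% of all genes. The 4 above (named after their values were seen) were Canx, Eif2ak3, Atf4 and Ddit3. The last 3 act in the stress arm that slows translation. With CPM over all genes 1 lay above and 18 below, beside 15.4% and 46.6% of all genes. Hspa5, the main ER chaperone, had 1493 and 1156 CPM inside a Ctrl range of 850 to 2500 CPM (median 1684 CPM), and Derl1, a retrotranslocation factor, 83.1 and 64.1 CPM against 124 to 153 CPM. Of 21 cytosolic heat shock genes 4 lay above (19.0%) and 5 below (23.8%), beside 27.9% and 31.1% of all genes. Dnajb1 had 35.1 and 30.6 CPM against 43.4 to 86.1 CPM, and Bag3 61.1 and 81.3 CPM against 36.4 to 52.1 CPM. Dnajb1 came to lie inside the range on the epithelial scale, and Bag3 with CPM over all genes. The cold-inducible Rbm3 and Cirbp were inside or across the edge of their ranges, with 130 and 101 CPM (Ctrl 47.6 to 115 CPM) and 14.6 and 20.0 CPM (12.6 to 45.9 CPM).

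On the scale used here, splicing factors lay above the Ctrl range most often of the lists with at least 10 genes. Of 36 genes 19 lay above (52.8%, against 27.9% of all genes) and 6 below. The list median was 0.23 above the median gene (0.23 to 0.24 over the scalings, which can hardly change it). With CPM over all genes 6 lay above and 8 below, beside 15.4% and 46.6% of all genes. Hnrnpu, which binds nuclear RNA and chromatin, had 665 and 709 CPM against 315 to 380 CPM (median 342 CPM), and Srsf11 had 123 and 127 CPM against 60.8 to 86.1 CPM. Relative to genes of the same length class the list stood at 0.20. WNT signalling had 9 of 25 above (36%) and 7 below (28%), beside 27.9% and 31.1% of all genes. It did not lean to one side, although Tcf7l2, its transcription factor, had 32.1 and 45.6 CPM against 15.1 to 17.6 CPM. The remaining lists had small counts, to be read against the 27.9% of all genes above and 31.1% below. Of sterol synthesis genes 4 of 27 lay above and 9 below, of interferon-stimulated genes 5 of 14 and 3, of MHC presentation genes 0 of 12 and 2, and of replication-dependent histones 0 of 6 and 3.

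The placement of stress hormone targets and immediate early genes was mixed. Mt1, a metallothionein that zinc and glucocorticoids induce, had 107 and 130 CPM against 19.4 to 38.9 CPM in Ctrl (median 22.6 CPM), and it stood above 100% of genes of like expression. Mt2 had 25.2 and 31.8 CPM against 2.82 to 16.4 CPM. Both metallothioneins exceeded every Ctrl library, and astrocytes, whose markers were higher in KO, are also known to express them. Sgk1, another target, had 248 and 230 CPM just under the Ctrl range of 250 to 557 CPM, and on the epithelial scale its log2 difference turned from -0.62 to 0.07. Of 12 targets 2 lay above (16.7%) and 1 below (8.33%), beside 27.9% and 31.1% of all genes. The 1 below was Sgk1, which lay inside the range with DESeq2 size factors. Jun had 28.0 and 36.7 CPM against 8.10 to 13.7 CPM, while Jund (88.2 and 122 CPM) crossed the top of its range (77.2 to 99.9 CPM). Of 14 immediate early genes at the minimum 2 lay above and 2 below (14.3% each), beside 27.9% and 31.1% of all genes. The other 10 were not outside the range on one side in both libraries. Their list median was nevertheless 0.43 above the median gene, and 0.53 relative to genes of the same length class.

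**Figure D5:**
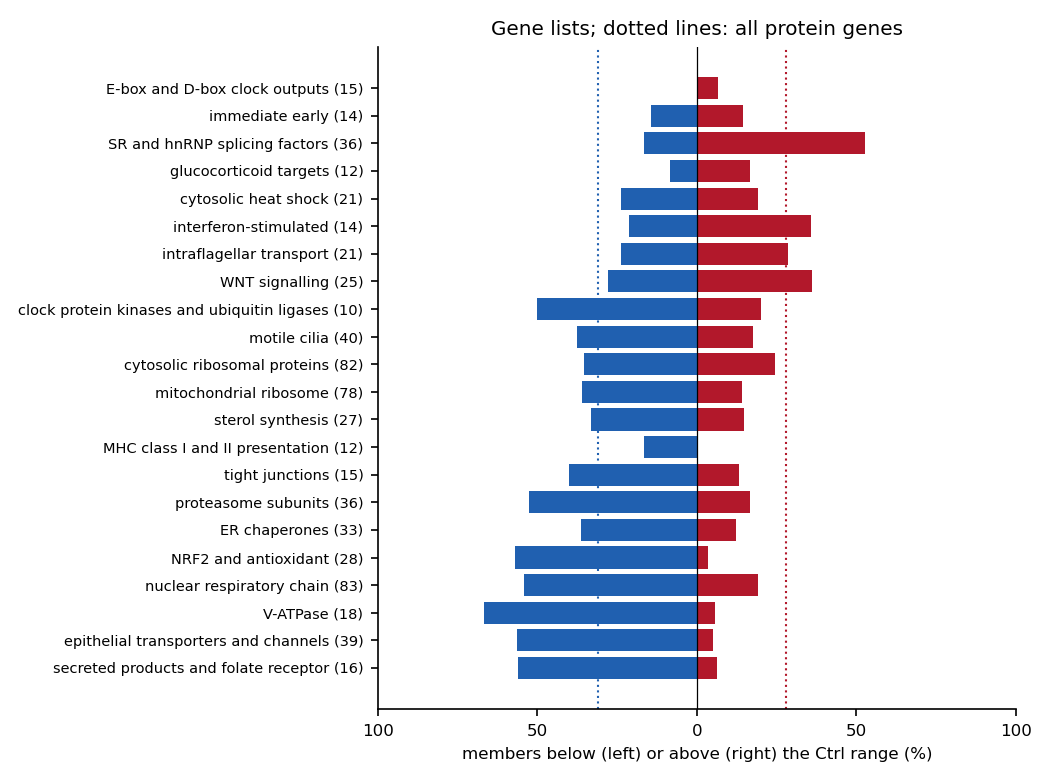
Percent of members of each gene list with both KO libraries above (right, red) or below (left, blue) the Ctrl range, for lists of at least 10 genes (number in brackets), ordered by median log2 difference. Dotted lines mark the 27.9% above and 31.1% below of all compared genes, and the sides shift with the scaling as the text gives. Secreted products, transporters and V-ATPase subunits reach beyond the left dotted line, and splicing factors beyond the right one.

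The genes furthest above the range were extreme. Cell type markers, those of epithelium, neurons and glia among them, and histones had been left out of this ranking. Vsig8, a gene of the immunoglobulin superfamily, had 23462 and 28658 CPM against 24.4, 47.7 and 168 CPM in Ctrl, a 520-fold difference. Pappa, which encodes a protease of IGF-binding proteins, had 7165 and 8494 CPM against 27.7 to 165 CPM. In every Ctrl library these genes had nearly equal CPM (0.932 to 1.22 Pappa per Vsig8), and in KO the ratio was 0.305 and 0.296. The library kit differed between the groups and whether reads were divided between genes was not tested, so the values of Vsig8, Pappa and Phlpp1 are uncertain as levels of expression. Phlpp1, a phosphatase that was first found as a gene with a daily rhythm in the SCN, had 1585 and 3090 CPM against 38.3 to 56.3 CPM, and Ube3c, a ubiquitin ligase, 1242 and 1585 CPM against 68.8 to 81.9 CPM. Angel2, Mark4, Dmd, Mroh6, Tcf20 and Wnt7b completed the 10 furthest above, with log2 differences from 3.06 to 4.36. Mroh6 and Wnt7b had a course over the Ctrl libraries like that of Vsig8 and Pappa, highest at CT44 (18.3 and 51.4 CPM). Their values are therefore uncertain in the same way. Phlpp1 and Tcf20 were also highest in Ctrl at CT44. Among the 42 genes above the range that were at least 8-fold higher than the Ctrl mean, the Ctrl library of CT4 was the highest of Ctrl for 30 (71.4%), against 12.3% of all genes, and that library also held the most neuronal RNA of Ctrl.

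At the other end, most genes were annotated models that overlap or nearly copy another gene, so the counting may split reads between them and their values are uncertain. Galnt2l had no count in either KO library against 73.2 to 110 CPM in Ctrl, at least 374-fold lower by a floor of 3 counts per library, while Galnt2 lay above the Ctrl range (90.4 and 102 CPM against 27.8 to 49.5 CPM). Commd1b was likewise without a count, at least 54.7-fold lower, and Commd1, which it overlaps, had 49.8 and 36.4 CPM against 25.9 to 34.1 CPM. Gm49342, which overlaps Pnp and Pnp2, was at least 69-fold lower and Gm28539, which overlaps Hira, at least 30.7-fold. The values of Galnt2 and Commd1 were looked up after those of their partners were seen, together with 4 other genes that lay below or inside the range. Sap18 had 67.9 and 77.4 CPM against 89.4 to 109 CPM, and Ubb 740 and 767 CPM against 971 to 1152 CPM. Atp5e, with 30.5 and 28.0 CPM against 89.2 to 126 CPM, lay below as well, and Cycs, with 211 and 132 CPM against 119 to 153 CPM, did not. Gm8797, Gm10053, Gm10131 and Gm49383 had 0.208 to 2.10 CPM in KO against 4.17 to 56.9 CPM in Ctrl. The other two of the 10 furthest below were Vwa5b1 (25.4 and 23.8 CPM against 114 to 217 CPM) and Wdfy1, an endosomal adaptor (17.2 and 15.5 CPM against 67.4 to 82.8 CPM), and both were more than 4-fold lower than Ctrl without overlap.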

How the data were processed

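RNA-seq of ChP from 12 Ctrl and 2 KO mice was used. The authors deposited estimated counts per gene, not normalized, in 1 table for Ctrl and SCNx and another for KO. The submitters' processing notes name STAR, Salmon 1.9.0, StringTie 2.2.1, SAMtools 1.16.1 and cutadapt 3.4. The tables were joined by Ensembl identifier (55416 genes), and gene type and exonic length came from GENCODE M21 (52135 genes matched). Here CPM were computed over the 21915 nuclear protein genes with TMM factors (edgeR 4.0.16, R 4.3.3), and log2 values of CPM + 0.5. A gene counted as above or below when both KO libraries passed the highest or lowest Ctrl library. No significance test was made. The placement was tested on simulated data, and intervals cover counting error only.

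Named were the 22 clock genes, the 10 genes furthest above and below without cell type markers and histones, and per other list the 2 most abundant and the 2 furthest outside, of which the text gives a part. Some items are not reported here. The members and lists were chosen with earlier results of these data known. Alternatives were other scalings (one with DESeq2 1.42.0), minimum levels, pseudocounts, left-out libraries and time-matched Ctrl libraries. The scale of 10 epithelial markers and the omission of Ctrl CT4 alone were chosen after seeing the data.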

Additional observations from a re-analysis of the deposited data

Results flagged for a closer look

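In 15 clock genes the Ctrl libraries of day (CT8, CT32) and of night (CT16, CT20, CT40, CT44) did not overlap, and the KO libraries had the opposite order in 11 of these, in 6 of them by more than counting error. All 6 were higher by day in Ctrl and higher at ZT18 in KO. The log2 difference, ZT7 minus ZT18, was -0.71 for Nr1d1 (95% counting interval -0.87 to -0.56, against 3.92 between day and night in Ctrl), -0.26 for Dbp (Ctrl 2.42), -0.53 for Hlf (Ctrl 0.49), -0.36 for Bhlhe40 (Ctrl 0.32), -0.32 for Bhlhe41 (Ctrl 1.42) and -0.31 for Per3 (Ctrl 0.87). The difference between the groups was not tested, since KO had 1 mouse per time. Over all 3505 genes whose Ctrl day and night libraries did not overlap, the KO libraries had the opposite order in 52.2%, whatever its size.

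Mitochondrial ribosomal RNA, which lies outside the genes compared, took 20.2% of all estimated counts at ZT7 and 17.5% at ZT18 in KO, against at most 0.498% in a Ctrl library.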

How the results depend on the processing

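No paired analysis was possible because the labels of KO and Ctrl carry no shared replicate numbers. Clock genes above the Ctrl range numbered 3, with 1 under CPM over all genes and 8 under the epithelial scale, and none lay below under any alternative. Leaving out either KO library gave 3756 to 3780 genes above, 4101 to 4188 below, 824 to 884 above and 618 to 658 below by at least 2-fold, and 4 clock genes above. With CPM over all genes 1625 lay above, and 387 above and 1274 below by at least 2-fold. On the epithelial scale the counts were 6866 above, 481 below, 3049 and 49 by at least 2-fold. A minimum of 1 CPM gave 1316 above by at least 2-fold, and no minimum gave 5044 above and 2054 by at least 2-fold. The 97 genes that differed 2-fold between the KO libraries became 254 at a minimum of 1 CPM, 57 at 10 CPM, 580 without a minimum, 64 with a pseudocount of 2 and 158 on the epithelial scale. Among the named genes outside the Ctrl range, the log2 difference changed sign in 13, while sign changes of genes inside the range were not counted. With CPM over all genes this was Hnrnpa2b1 (-0.10). On the epithelial scale it was Csnk2a1 (0.40), Enpp2 (0.21), Drc7 (0.070), Csrnp1 (0.010), Sgk1 (0.068), Scd2 (0.41), Tap1 (0.11), Tap2 (0.17), Ctnnb1 (0.31), Atp6v1a (0.14), Psmd2 (0.38) and Atp5a1 (0.28). The scale thus decides how many genes lie on each side, and leaving out Ctrl CT4 and CT16 or matching the time kept each of the counts over all genes within 1.5 times.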

Other observations

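Cells of vessels and stroma, which the lists of the report did not cover, were mixed in KO. Myh11, the myosin of smooth muscle, had 45.3 and 99.2 CPM against 4.17 to 35.3 CPM in Ctrl, and Dcn, a proteoglycan of fibroblasts, 163 and 249 CPM against 86.5 to 142 CPM. Both lay above the Ctrl range, each as the only one of 5 markers of its cell type. Col1a2, a collagen gene of the same fibroblasts, was below the range of 130 to 191 CPM at ZT7 (78.6 CPM) and inside it at ZT18 (145 CPM). Endothelial markers summed to 133 and 178 CPM against 47.3 to 142 CPM. Among macrophage markers Mrc1, a receptor of border macrophages, had 18.4 and 16.7 CPM against 6.25 to 14.2 CPM, and Csf1r 23.9 and 25.8 CPM in a range from 19.9 to 32.4 CPM. Of the globin genes Hba-a1 had 46.4 and 60.7 CPM against 140 to 681 CPM, while its paralog Hba-a2 had 83.9 and 113 CPM inside a range from 28.6 to 152 CPM.

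Among the Ctrl libraries that of CT44 was the highest and that of CT20 the lowest for both Vsig8 and the 18S ribosomal RNA Rn18s (82683 and 35024 CPM). In KO Vsig8 was higher than in any Ctrl library, and Rn18s was lower, at 8374 and 13233 CPM. Per 1000 counts of Rn18s, Vsig8 had 0.596 to 2.03 counts in Ctrl and 2802 and 2166 counts in KO.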
